A study of Homo sapiens with 24 samples.

Results

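HMOX1 and 9 other genes of the NRF2 antioxidant system were followed across 12 groups of MDA-MB-231 cells, a human breast cancer line with no estrogen receptor that forms metastases in mice. The members were HMOX1, NQO1, GCLM, GCLC, TXNRD1, SRXN1, SLC7A11, FTL, NFE2L2 and KEAP1. All 17 array probes annotated to these 10 genes were taken, of 47309 probes on the array, and the 15 that passed detection (p under 0.05 against negative controls) in both replicates of 1 or more groups entered the fit, among 22803 tested probes for 12529 genes with a single symbol. All 10 genes kept at least 1 tested probe. The members were chosen by the measured rise of HMOX1 in the miR-544a mimic arrays over the NT control arrays, so no p-value is given for a member in that comparison. Which genes passed the thresholds there is listed as a description only.

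Cells received 50 nM of a microRNA mimic, a microRNA inhibitor or a non-targeting (NT) control and were collected after 48 h for total RNA, which was hybridised to Illumina HT12v4 bead arrays. A mimic is a synthetic double-stranded RNA that supplies the mature microRNA, and an inhibitor is a synthetic strand that binds it. Mimic and inhibitor were both used for miR-544a, miR-655-3p, miR-135a, miR-410 and miR-369-3p, miR-127-5p was given as a mimic only, and the only control was the NT mimic, with 2 arrays in each of the 12 groups (24 arrays). All groups were grown in DMEM with fetal serum. The study's methods describe the NT mimic as carrying a Dy546 dye, so every mimic and inhibitor was compared with a dye-labelled control. An effect of that control cannot be told apart from one of the reagent in these comparisons. Each inhibitor was also compared with a mimic, so the effect of the reagent class cannot be told apart from that of the sequence. The labels do not say whether replicate arrays were from separate cultures, and p-values here then measure only the spread between these samples, which may be technical.

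NRF2, the product of NFE2L2, is a transcription factor that KEAP1 holds for degradation while a cell is at rest. Oxidants and electrophiles modify KEAP1, after which NRF2 enters the nucleus, pairs with a small MAF protein and binds antioxidant response elements near genes of glutathione synthesis, thioredoxin reduction and quinone and heme breakdown. HMOX1, heme oxygenase 1, splits heme into biliverdin, iron and carbon monoxide. It is also under the repressor BACH1, which heme removes from DNA, and it answers to stress factors outside the NRF2 system, so that it can move without the other members.

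The mature microRNAs of the transfected reagents are shown because groups were compared by them. The seed, bases 2 to 8, is in capitals. Sequences are from RefSeq (GRCh38.p14), and all 4 lie on the plus strand of chromosome 14, at chr14:101048712-101048733 for miR-544a, chr14:100883001-100883022 for miR-127-5p, chr14:101065641-101065661 for miR-369-3p and chr14:101049610-101049631 for miR-655-3p. The labels give no arm for miR-135a and miR-410, and none is printed for them.
miR-544a: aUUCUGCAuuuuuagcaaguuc
miR-127-5p: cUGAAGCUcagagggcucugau
miR-369-3p: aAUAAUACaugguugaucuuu
miR-655-3p: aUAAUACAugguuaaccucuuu
No 2 of these seeds were the same. The seeds of miR-655-3p and miR-369-3p had in common a run of 6 bases, offset by 1 position, inside a common run of 13 bases. The longest run that the miR-544a seed shared with another seed was 2 bases.

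The NRF2 element core, TGACNNNGC on either strand, was sought in promoter windows of 300 bases (250 before to 50 after the start site). The members were listed as genes of the NRF2 system, so a core in their promoters is not independent of that choice. Windows were given for 8 members (11 windows), and 4 windows of 3 members held the core, GCLM, TXNRD1 and KEAP1. HMOX1 and SLC7A11 had no window in the table and were not searched. Of all 35116 promoter windows, 13.3% held it. The cores are in capitals with up to 10 bases on each side, read on the strand that carries the core (RefSeq, GRCh38.p14).
GCLM, chr1:93909446-93909474, plus strand: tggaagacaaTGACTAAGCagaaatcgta
TXNRD1, chr12:104215670-104215698, plus strand: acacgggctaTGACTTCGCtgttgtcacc
TXNRD1, chr12:104215761-104215789, minus strand: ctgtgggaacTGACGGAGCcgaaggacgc
TXNRD1, second window, chr12:104286920-104286948, minus strand: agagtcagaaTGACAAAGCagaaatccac
KEAP1, chr19:10502807-10502835, minus strand: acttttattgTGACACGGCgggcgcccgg
KEAP1, chr19:10502784-10502812, plus strand: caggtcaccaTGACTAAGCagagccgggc
The GCLM sequence and the second KEAP1 sequence carried the same 9 letters, TGACTAAGC. None of the 6 overlapped the AP-1 motif TGACTCA. A match is a description of these letters and not a binding site, and no match says only that the letters are not in the window.

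The 24 arrays detected between 19754 and 21286 probes. The 2 arrays of a group correlated at 0.980 to 0.997 over tested probes, and the miR-544a mimic pair was the lowest, with 314 of 12529 genes apart by at least 1 on the log2 scale against 2 in the NT control pair. The MDA-MB-231 markers VIM, CD44, MSN, AXL and CAV1 were detected on all 24 arrays, and ESR1 and CDH1 on 0. Of the other markers, GATA3 was detected on 24 arrays at levels of 36.8 to 78.7, PGR on 1, PTPRC, CD3E and INS on 0, PECAM1 on 16 and CD14 and ALB on 24 at up to 341 and 137. With the miR-544a mimic against the NT control CAV1 (-0.68), GATA3 (-0.65) and CD14 (-0.76) were called lower and MSN (0.51) higher on the log2 scale. In the other 10 comparisons with the NT control CD14 was called lower in 9, PECAM1 in 5 and GATA3 in 1, the miR-135a mimic. The part of these genes in any result was not tested. Levels below are linear normalized intensities, which are not compared between genes. The RNA was bulk RNA, so a change in the mix of cells and a change in RNA per cell cannot be told apart.

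HMOX1 had 1 probe (ILMN_1800512), detected on all 24 arrays. Its level was 2708 and 3035 on the 2 miR-544a mimic arrays and 180.0 and 165.9 on the NT control arrays. The 2 mimic arrays were the highest of the 24. HMOX1 was 16.6-fold higher, a log2 fold change of 4.05 ± 0.19 (standard error of the fit, 2 against 2 arrays), and ranked 1 of 12529 genes by log2 fold change. On the miR-544a inhibitor arrays HMOX1 was at 172 and 230.3, a span that contained an NT control array.

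The next HMOX1 levels were all in inhibitor groups. They were 452 and 678 with the miR-135a inhibitor, 553 and 457 with the miR-369-3p inhibitor and 435 and 320.2 with the miR-410 inhibitor. All 6 of these arrays lay above both NT control arrays and below both miR-544a mimic arrays. HMOX1 rose in all 3 comparisons with the NT control, by 1.68 on the log2 scale for the miR-135a inhibitor (limma adjusted p = 2.13e-05), by 1.54 for the miR-369-3p inhibitor (limma adjusted p = 7.63e-05) and by 1.11 for the miR-410 inhibitor (limma adjusted p = 0.00126), each ± 0.19. The miR-410 inhibitor call was lost under median scaling (0.97). The miR-655-3p inhibitor arrays were at 196 and 178, with a log2 difference of 0.11 that did not pass (95% interval -0.30 to 0.52). These comparisons share the NT control arrays with the comparison that chose HMOX1.

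Among the other mimics, the miR-127-5p mimic gave the lowest HMOX1 of the series. It was 81.9 and 90.4 on its 2 arrays, below every other array, and fell by 1.01 ± 0.19 on the log2 scale (limma adjusted p = 0.00121). The deposited signals were 182 and 176, against 306 and 256 in the NT control. Over the alternative settings the log2 difference ran from -1.16 to -0.53 and stayed called. The miR-135a mimic arrays were at 241 and 287, a log2 rise of 0.61 ± 0.19 (limma adjusted p = 0.0337). That call was lost when any single array of either group was left out, at log2 values of 0.67 and 0.55 without NT control replicate 1 or 2 and 0.73 and 0.48 without mimic replicate 1 or 2. It was also lost with no background correction, under median scaling and with no filter on dim probes. HMOX1 did not pass with the miR-410 mimic (252 and 219, log2 difference 0.44), the miR-655-3p mimic (205 and 204, 0.24) or the miR-369-3p mimic (159 and 172, -0.06).

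In order of mean level, the miR-544a mimic group stood at 2872 ± 231 (SD, n = 2) and the miR-135a inhibitor group at 565 ± 160.2, a gap larger than the 2 SDs together. From the miR-135a inhibitor down to the miR-410 mimic (235 ± 22.9), no neighbouring groups differed by more than the sum of their SDs. Nor did they from the miR-655-3p mimic (205 ± 0.795) to the miR-369-3p mimic (165 ± 8.60), a stretch that included the NT control (173 ± 9.98). The miR-127-5p mimic (86.2 ± 5.96) stood below by more than both SDs.

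**Figure D1:**
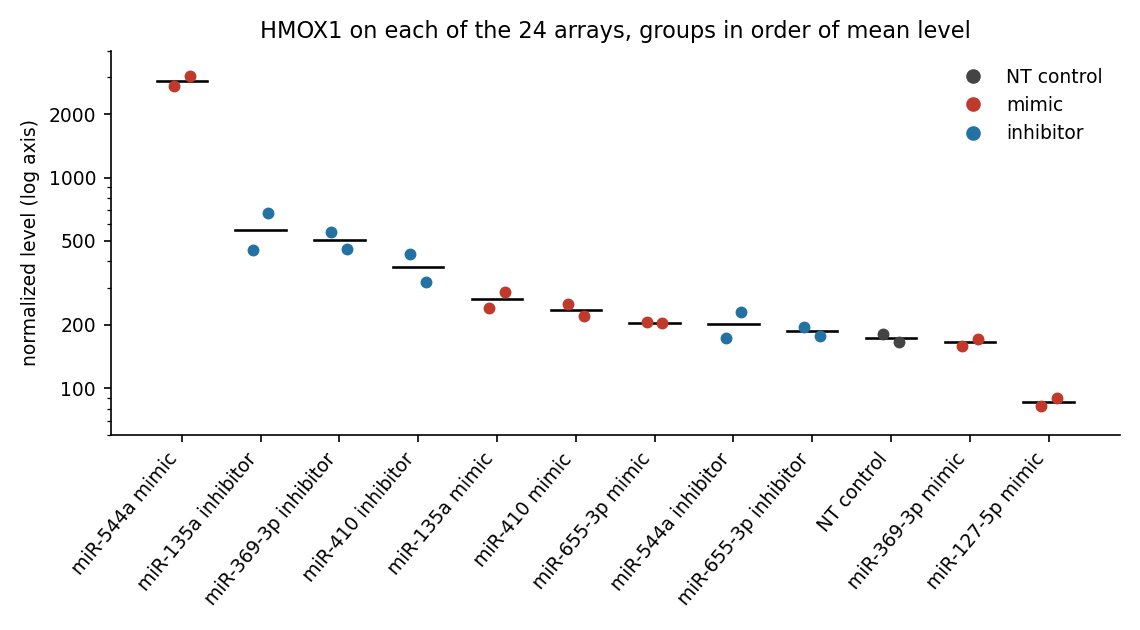
HMOX1 normalized level (log axis) on each of the 24 arrays, with groups ordered by mean level; points are arrays, coloured by reagent, and lines are group means. The 2 miR-544a mimic arrays sit at 2708 and 3035, above all others, and the 2 miR-127-5p mimic arrays at 81.9 and 90.4, below all others.

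Against their own inhibitors, which uses no NT array, the mimics of miR-135a, miR-369-3p and miR-410 had less HMOX1. The log2 difference was -1.07 for miR-135a (limma adjusted p = 0.000774), -1.60 for miR-369-3p (limma adjusted p = 0.000102) and -0.67 for miR-410 (limma adjusted p = 0.0371), each ± 0.19. The miR-410 call was lost without miR-410 inhibitor replicate 1 (-0.45) or without miR-410 mimic replicate 1 (-0.77) or 2 (-0.57). For miR-655-3p the difference was 0.13 and did not pass (95% interval -0.27 to 0.54). The miR-544a pair ran the other way by description, with the mimic 3.85 above the inhibitor on the log2 scale.

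NFE2L2, which encodes NRF2 itself, varied little. Its arrays ran from 753 to 1235, with 847 and 824 under the miR-544a mimic and 1015 and 1090.3 under the NT control. The mimic arrays lay below both control arrays, a log2 difference of -0.33 ± 0.13. NFE2L2 was called in none of the 10 other comparisons with the NT control. Its lowest group was the miR-135a mimic (753 and 869), where it was lower by less than the 1.4-fold required (log2 -0.38, limma adjusted p = 0.0413). Under median scaling in place of quantile normalization it was called lower there. The NFE2L2 probe reports messenger RNA, and NRF2 is controlled mainly through its protein, which arrays do not measure.

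KEAP1, the adaptor that marks NRF2 for degradation, was not called in any of the 11 comparisons with the NT control by its brightest probe. The 2 miR-544a mimic arrays disagreed, at 1320.5 and 787, while the NT control arrays stood at 1303 and 1257.5. The log2 difference was -0.33 ± 0.20 over both mimic arrays. Without miR-544a mimic replicate 1 it was -0.70 and became the only other member called lower there. The second tested KEAP1 probe gave 961 and 677.5 on the same mimic arrays and followed the first over the 12 group means (r = 0.94). The remaining KEAP1 probe and the second GCLC probe were detected on 0 arrays and were not tested. Their lowest detection p-values were 0.299 and 0.234. The tested member probe detected in the fewest groups was the second NQO1 probe, on both arrays of 5 groups, with detection p-values up to 0.174 elsewhere.

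Glutathione is made from glutamate, cysteine and glycine, and its first step is run by a ligase of a catalytic subunit, GCLC, and a modifier subunit, GCLM. GCLM was the only other member called higher under the miR-544a mimic, at 2559 and 2826 against 1586 and 1661 in the NT control, a log2 fold change of 0.73 ± 0.20. The groups did not overlap. The call was lost without NT control replicate 1 (0.70) or without miR-544a mimic replicate 2 (0.66). Its dimmer probe was at 677 and 792 against 345 and 328, a log2 fold change of 1.12 ± 0.17.

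The 2 GCLM probes parted elsewhere. The brighter probe was called higher for the miR-135a mimic (log2 0.61, limma adjusted p = 0.0358) and the miR-135a inhibitor (0.70, limma adjusted p = 0.0236), and each of these calls was lost when any single array of its groups was left out, at log2 values of 0.55 to 0.80. The dimmer probe was called higher for the miR-127-5p mimic (1.20, limma adjusted p = 9.72e-05) and the miR-369-3p inhibitor (1.18, limma adjusted p = 0.000313) and lower for the miR-410 mimic (-0.59, limma adjusted p = 0.0412), where the brighter probe gave 0.46, 0.05 and -0.06 and was not called. Over the 12 group means the 2 probes correlated at r = 0.36. On the miR-369-3p inhibitor arrays the brighter probe read 2253 and 1252 and the dimmer probe 656 and 886, so that they moved in opposite directions between the same arrays.

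**Figure D2:**
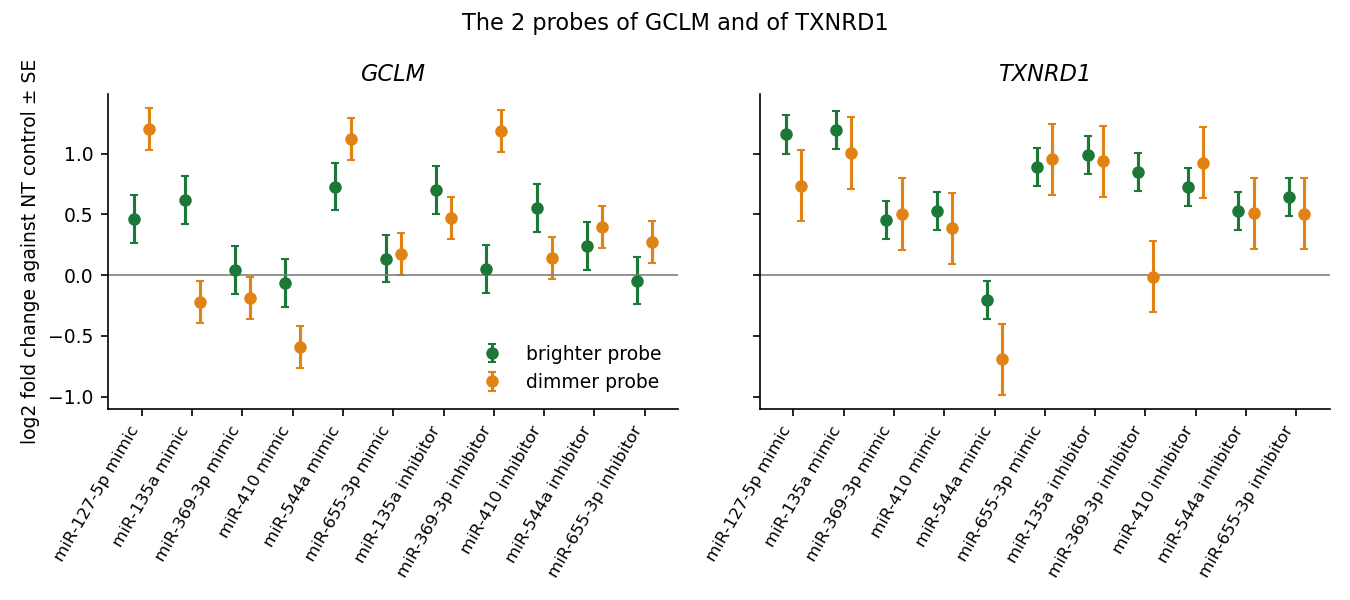
log2 fold change against the NT control (± standard error) of the 2 tested probes of GCLM and of TXNRD1 in each of the 11 comparisons. The GCLM probes part for the miR-135a mimic (0.61 and -0.22) and the miR-369-3p inhibitor (0.05 and 1.18), and both TXNRD1 probes lie below 0 (-0.20 and -0.69) for the miR-544a mimic only.

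GCLC, the catalytic subunit, stayed near the control under the miR-544a mimic, at 169 and 151 against 193 and 156 with overlapping arrays (log2 -0.12 ± 0.16). It fell with the miR-410 mimic, to 80.2 and 107.9 (log2 -0.90, limma adjusted p = 0.0017), and with the miR-135a mimic, to 113 and 106.7 (log2 -0.66, limma adjusted p = 0.0074). All 4 of these arrays lay below both control arrays. The second call was lost without NT control replicate 1 (-0.51) or without miR-135a mimic replicate 2 (-0.61). In that group the brighter GCLM probe was called higher and the dimmer gave -0.22, below 0 like GCLC, and was not called.

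SLC7A11 is the cystine carrier subunit that supplies cysteine for glutathione. Its highest arrays were those of the miR-135a mimic, 220.3 and 167, against 70.4 and 50.6 in the NT control, a log2 fold change of 1.68 ± 0.18 (limma adjusted p = 6.96e-06). It also rose with the miR-135a inhibitor (149 and 120.4, log2 1.17, limma adjusted p = 0.000424) and the miR-127-5p mimic (126.0 and 126.2, log2 1.08, limma adjusted p = 0.000457). The rise with the miR-410 inhibitor (78.7 and 108, log2 0.63, limma adjusted p = 0.0344) was lost without NT control replicate 2 (0.39) or miR-410 inhibitor replicate 2 (0.40), and with no background correction (0.26). Under the miR-544a mimic SLC7A11 read 45.0 and 54.0, a log2 difference of -0.28 ± 0.18 in which a mimic array lay between the 2 control arrays. Deposited SLC7A11 signals were 137 to 251, where the background correction takes a large share, and other SLC7A11 fold changes without that correction are given in the closing section.

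TXNRD1, the cytosolic reductase that keeps thioredoxin reduced, was the member called most often. It rose in 8 of the 11 comparisons with the NT control, whose arrays stood at 3196 and 3120.4. The largest rises were with the miR-135a mimic (6880 and 7580.3, log2 1.19, limma adjusted p = 4.22e-05), the miR-127-5p mimic (6922 and 7164, log2 1.16, limma adjusted p = 5.74e-05) and the miR-135a inhibitor (5760.5 and 6784, log2 0.99, limma adjusted p = 0.000453), each ± 0.16. The other 5 were the miR-655-3p mimic (0.89), the miR-369-3p inhibitor (0.85), the miR-410 inhibitor (0.73), the miR-655-3p inhibitor (0.64) and the miR-410 mimic (0.53). The miR-410 mimic call was lost without any single array of its groups (0.41 to 0.65) and without 10 others, the miR-655-3p inhibitor call without NT control replicate 1 (0.66) or 2 (0.62) or inhibitor replicate 1 (0.49), and the miR-410 inhibitor call without NT control replicate 2 (0.71) or inhibitor replicate 1 (0.65). Median scaling ended the calls for the miR-369-3p inhibitor (0.86), the miR-410 mimic (0.31), the miR-410 inhibitor (0.70) and the miR-655-3p inhibitor (0.63). With the miR-544a inhibitor TXNRD1 read 4531 and 4557 (log2 0.52) and was not called. That rise was called with no background correction and with an offset of 50. It was also called with probes detected on all 24 arrays only and with only the compared groups in the fit.

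Under the miR-544a mimic TXNRD1 read 2396 and 3138, the lowest mean of the 12 groups, with 1 array between the 2 control arrays (log2 -0.20 ± 0.16). Every array of the 10 other groups, from 4185 upwards, lay above all 4 arrays of the NT control and the miR-544a mimic. The dimmer TXNRD1 probe gave 1401 and 987 under the miR-544a mimic against 1948 and 1849 in the control (log2 -0.69 ± 0.29). It was called higher in 4 comparisons, the miR-135a mimic and inhibitor, the miR-410 inhibitor and the miR-655-3p mimic. On the miR-369-3p inhibitor arrays the dimmer probe read 3012 and 1176, a wide gap that the brighter probe (6448 and 5026) did not show to the same extent.

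SRXN1, sulfiredoxin, which repairs over-oxidised peroxiredoxins, was called in none of the 11 comparisons. It read 1598 and 1828 under the miR-544a mimic against 2142 and 2077 in the control, with no overlap and a log2 difference of -0.30 ± 0.14. Its highest group was the miR-135a inhibitor (2472 and 2729, log2 0.30, limma adjusted p = 0.16). NQO1, a quinone reductase often used as a readout of NRF2 activity, was also called in none. It read 5270.3 and 6241 under the miR-544a mimic against 6323 and 6372 in the control, a log2 difference of -0.15 ± 0.11. Its lowest arrays were those of the miR-369-3p mimic (4640 and 4625, log2 -0.45, limma adjusted p = 0.0181) and the miR-410 mimic (4753 and 4670, log2 -0.43, limma adjusted p = 0.0169), differences under the 1.4-fold required. Under median scaling NQO1 was called lower with the miR-410 mimic.

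FTL, the light chain of the iron store ferritin, varied least in normalized level. Its 2 probes ranked 5 and 6 of 47309 by mean signal, where quantile normalization leaves little room for a value to move. The arrays spanned 17756 to 21487, and its brighter probe moved by at most 0.10 on the log2 scale, in either direction, from the NT control.

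**Figure D3:**
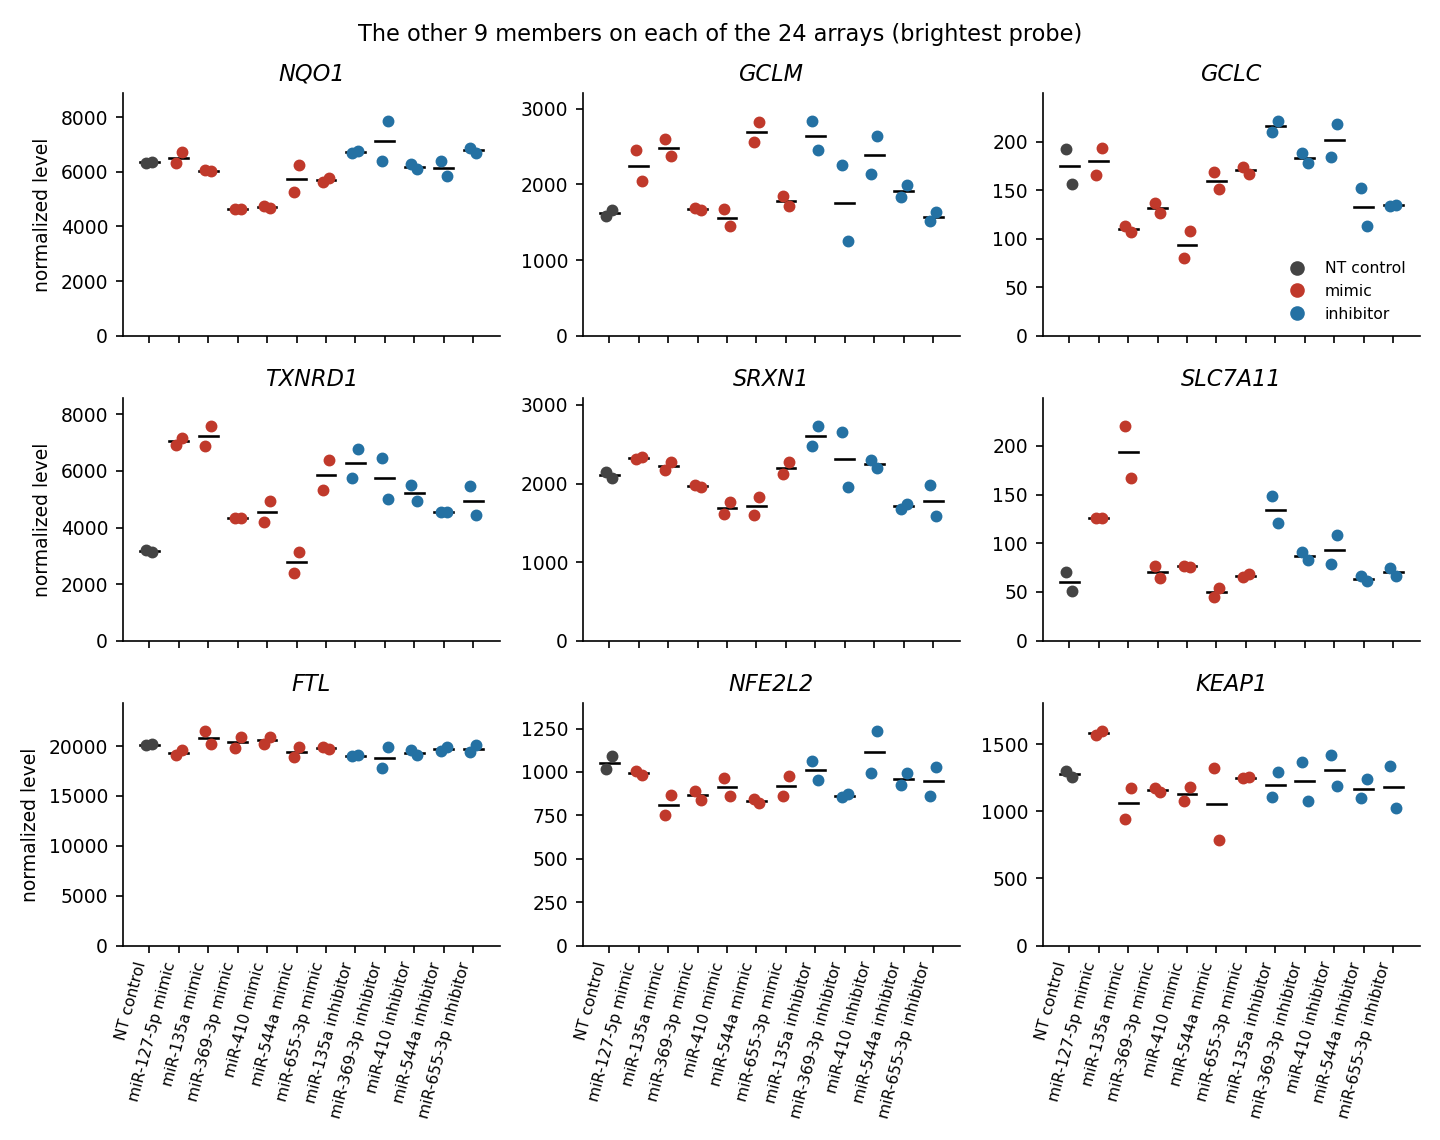
Normalized level of the other 9 members (brightest probe, linear axes from 0) on each of the 24 arrays; points are arrays, coloured by reagent, and lines are group means. TXNRD1 is lowest in the NT control and miR-544a mimic arrays (2396 to 3196), and the 2 miR-544a mimic arrays of KEAP1 lie apart at 1320.5 and 787.

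For the question of whether HMOX1 moved alone, the other 9 members were counted in each comparison beside all genes tested. A gene was called when its adjusted p was under 0.05 and its fold at least 1.4. Under the miR-544a mimic against the NT control, 1 of the 9 (GCLM) was called higher and 0 lower, where 14.0% of all tested genes were called higher and 10.7% lower. Their log2 fold changes ran from -0.33 to 0.73 with a median of -0.20, beside a median of 0.05 over all 12529 genes and 4.05 for HMOX1. This comparison chose the members, so nothing is read from the counts.

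With the 10 inhibitor arrays as the reference, the miR-544a mimic had 0 of the 9 called higher and 2 lower, where 12.6% of all genes were called higher and 10.5% lower. TXNRD1 was lower by 0.95 ± 0.12 on the log2 scale (limma adjusted p = 1.72e-05) and SLC7A11 by 0.81 ± 0.14 (limma adjusted p = 0.000357). Both were below all 10 inhibitor arrays on both mimic arrays. GCLM was 0.43 higher (limma adjusted p = 0.0395) but under the 1.4-fold required by its brighter probe, and its dimmer probe was called higher (0.63, limma adjusted p = 0.00169). HMOX1 was 3.12 higher by description. This contrast shares the miR-544a mimic arrays with the one that chose HMOX1.

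The difference between mimic and inhibitor was also compared between miR-544a and the mean of the 4 other microRNAs given in both forms. Of the other 9 members, 3 differed at an adjusted p under 0.05, a threshold that 31.3% of all genes passed. The contrast uses the miR-544a mimic arrays that chose HMOX1, and nothing is read from the count. GCLC (0.84 ± 0.18, limma adjusted p = 0.00242) and GCLM (0.62 ± 0.22, limma adjusted p = 0.0469) had a higher mimic to inhibitor difference for miR-544a, and TXNRD1 had a lower one (-0.69 ± 0.18, limma adjusted p = 0.00772). The dimmer probes gave 1.45 for GCLM (limma adjusted p = 4.34e-05) and -1.32 for TXNRD1 (limma adjusted p = 0.00665). The contrast for the brighter GCLM probe no longer passed when any of 18 of the 24 arrays was left out (0.52 to 0.73 over all 24). The dimmer NQO1 probe, at levels of 23.5 to 42.3, gave 0.77 (limma adjusted p = 0.0449) where the brighter gave 0.26 (limma adjusted p = 0.121). The contrast for TXNRD1 no longer passed without miR-544a mimic replicate 1 (-0.50).

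**Figure D4:**
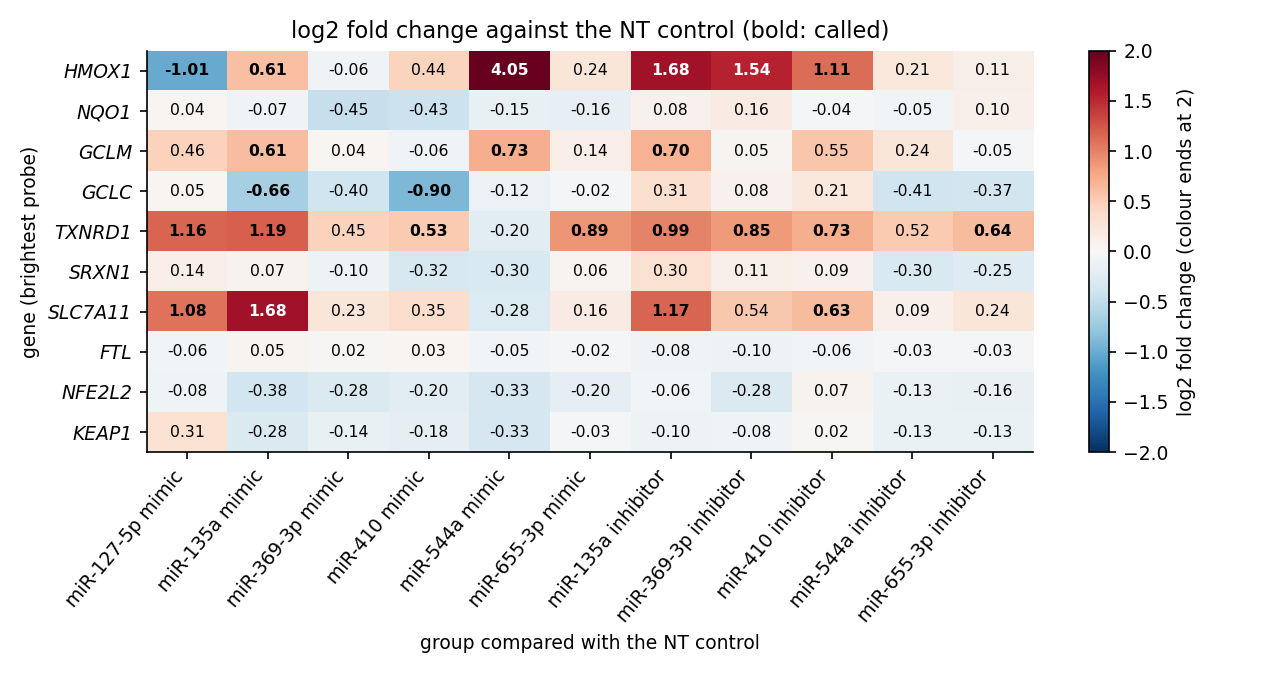
log2 fold change against the NT control of each member's brightest probe (rows) in the 11 comparisons (columns), with called values in bold; the colour scale ends at 2, so HMOX1 under the miR-544a mimic (4.05) is beyond it. TXNRD1 is called in 8 columns and HMOX1 in 6, and NQO1, SRXN1, FTL, NFE2L2 and KEAP1 in none.

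In the other 10 comparisons with the NT control, 21 of the 100 member values were called, 8 of them of TXNRD1. Nothing is read from this pooled count, and the shares of all genes are given beside each comparison below. All 10 comparisons use the same control arrays. With the miR-135a mimic 4 of 10 members were called higher (HMOX1, GCLM, TXNRD1 and SLC7A11) and 1 lower (GCLC), where 10.0% and 9.28% of all genes were. The miR-135a inhibitor had the same 4 genes called higher and 0 lower, beside 6.58% and 6.97% of all genes. HMOX1, TXNRD1 and SLC7A11 were called higher with the miR-410 inhibitor and 0 members lower, beside 4.59% and 6.58%. For the miR-369-3p inhibitor, 2 members were called higher, HMOX1 and TXNRD1, and 0 lower, beside 8.15% and 5.60%. The miR-127-5p mimic had TXNRD1 and SLC7A11 called higher and HMOX1 lower, beside 9.71% and 9.40%, so that HMOX1 and these 2 genes were called in opposite directions in the same cells.

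The remaining comparisons held few called members. TXNRD1 was called higher and GCLC lower with the miR-410 mimic, beside 4.14% and 4.63% of all genes. Only TXNRD1 was called higher, and 0 members lower, with the miR-655-3p mimic (6.68% and 7.39%) and with the miR-655-3p inhibitor (2.52% and 1.57%). Under the main settings no member was called in either direction with the miR-369-3p mimic (2.86% and 2.95%) or the miR-544a inhibitor (2.35% and 2.42%). At 10 members, shares of the size of these backgrounds amount to about 1 gene or fewer. The counts called higher of 4 for the miR-135a mimic, 4 for the miR-135a inhibitor and 3 for the miR-410 inhibitor became 2, 3 and 0 under median scaling in place of quantile normalization, and members were not tested as a set against all genes.

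Between each mimic and its own inhibitor, 0 members were called higher and 2 lower for miR-135a (HMOX1 and GCLC, beside 9.76% of all genes higher and 8.94% lower), for miR-369-3p (HMOX1 and NQO1, beside 4.28% and 5.16%) and for miR-410 (HMOX1 and GCLC, beside 4.84% and 4.06%). For miR-655-3p the count was 0 in both directions, beside 4.96% and 6.35%. The NQO1 call (log2 -0.61, limma adjusted p = 0.00244) was lost without miR-369-3p inhibitor replicate 2 (-0.46). The dimmer GCLM probe was also lower in these 3 mimics, by 0.69, 1.37 and 0.73 on the log2 scale, where the brighter probe gave -0.08, -0.01 and -0.62 and was not called. The GCLC differences were -0.97 for miR-135a (limma adjusted p = 0.000388) and -1.11 for miR-410 (limma adjusted p = 0.000314).

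Over the 12 group means, no other member followed HMOX1 closely. The Pearson r with HMOX1 ran from -0.61 (KEAP1) to 0.52 (GCLM), and over the 11 groups without the miR-544a mimic from -0.46 (KEAP1) to 0.36 (SRXN1), as a description over groups that share arrays and normalization. Among 4191 genes whose group means spanned at least 1 on the log2 scale, the 5 most like HMOX1 over 12 groups were TPP1 (r = 0.96), PRG2 (0.96), FOXC2 (0.95), FCGRT (0.95) and FBXO30 (0.93). TPP1 encodes a lysosomal peptidase and FCGRT the neonatal Fc receptor. Under the miR-544a mimic the log2 fold changes of TPP1, FCGRT and FBXO30 were 0.90, 1.09 and 1.11, against 4.05 for HMOX1. FOXC2 was not detected in the NT control and was at least 1.81-fold higher, and PRG2 was detected there on 1 of the 2 arrays. All of these 5 genes had their highest group mean under the miR-544a mimic, as HMOX1 did, so their r values lean on that group. Over the 11 groups without the miR-544a mimic the 5 were other genes, CCNB1IP1 (0.96), VESTAR (0.95), SLC25A38 (0.94), JMJD4 (0.94) and IFT46 (0.94). The span of 1 was still taken over all 12 groups, and CCNB1IP1 and IFT46 were highest under the miR-544a mimic. SLC25A38 is a mitochondrial glycine carrier of heme synthesis, and its log2 fold change under the miR-544a mimic was 0.47.

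The 9 lists of other genes of the pathway and of neighbouring stress responses held 120 genes, of which 98 were tested. Under the miR-544a mimic 13 (13.3%) were called higher and 7 (7.14%) lower, beside 14.0% and 10.7% of all genes. The median log2 fold change of the 98 was 0.06, and that of all genes 0.05.

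Among regulators of NRF2 and HMOX1, 1 of 10 tested was called higher and 0 lower under the miR-544a mimic. It was NFE2L3, an NRF2 relative (1551 ± 179.9 to 2300.4 ± 83.9, SD, n = 2, log2 0.57). Heme and iron genes were the list with the most calls, 3 of 10 higher and 2 lower. SLC48A1, a heme transporter, went from 54.7 ± 1.99 to 113 ± 6.78 (log2 1.05), ALAS1, the first enzyme of heme synthesis, from 63.7 ± 3.01 to 124 ± 31.0 (0.94), and SLC40A1, the iron exporter ferroportin, from 107.5 ± 1.42 to 53.1 ± 12.5 (-1.04). The other 2 calls, named after their values were seen, were TFRC, the transferrin receptor, lower (-0.68), and ABCB6, a porphyrin transporter, higher (0.50). SLC40A1 was also called lower in every other comparison with the NT control except those of the miR-127-5p and miR-655-3p mimics. It was lower by 1.86 with the miR-135a inhibitor and 1.39 with the miR-410 inhibitor on the log2 scale. Against the 10 inhibitor arrays SLC40A1 was not called.

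In the glutathione list 2 of 14 were called higher and 0 lower, GLRX, a glutaredoxin (1630 ± 59.7 to 4098 ± 277, log2 1.33), and GSTM4, a glutathione transferase (174 ± 0.760 to 319 ± 39.2, log2 0.87). In the thioredoxin and peroxiredoxin list 1 of 10 was called higher and 0 lower, TXNIP, which binds and inhibits thioredoxin (2138 ± 40.03 to 6446 ± 584, log2 1.59). Of the genes of NADPH supply 0 of 6 were called higher and 1 lower, MTHFD2 (-0.52). Among detoxification genes and other NRF2 targets 2 of 19 were called higher, SOD2 (0.86), the mitochondrial superoxide dismutase, and SQSTM1 (0.50), an autophagy adaptor, and 1 lower, AKR1C3 (-0.76), an aldo-keto reductase that NRF2 raises in other settings. GLRX, GSTM4, TXNIP, NFE2L3, SLC48A1 and ALAS1 were also called higher against the 10 inhibitor arrays, and SOD2 and SQSTM1 were not. Against the NT control SOD2 was also called higher with the miR-127-5p, miR-135a, miR-410 and miR-655-3p mimics and the miR-135a, miR-369-3p and miR-410 inhibitors. TXNIP was also higher with the miR-410 and miR-655-3p mimics and every inhibitor but that of miR-655-3p. It was lower with the miR-127-5p and miR-135a mimics. GLRX was also higher with the miR-127-5p mimic and the miR-135a and miR-410 inhibitors. ALAS1 was also higher with the miR-127-5p and miR-135a mimics, and SLC48A1 with the miR-135a and miR-655-3p mimics. GSTM4 was lower with the miR-127-5p and miR-655-3p mimics.

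Of heat shock genes 0 of 12 were called higher and 2 lower, HSPH1 (-0.54) and HSPA1B (-0.51), whose probe may also bind its near-identical copy HSPA1A. Of metallothionein genes, near-identical copies whose probes may bind each other, 2 of 7 were called higher, MT1X (0.68) and MT1G (0.64), and 1 lower, the zinc exporter SLC30A1 (-0.59), and against the 10 inhibitor arrays MT1X was called lower (-0.69). Of AP-1 genes 2 of 10 were called higher and 0 lower, JUNB (43.0 ± 7.78 to 108 ± 6.66, log2 1.34) and FOSB, which was not detected in the NT control and was at least 1.401-fold higher. JUNB was also called higher with the miR-135a, miR-369-3p and miR-410 inhibitors, and FOSB with the miR-135a mimic and inhibitor.

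**Figure D5:**
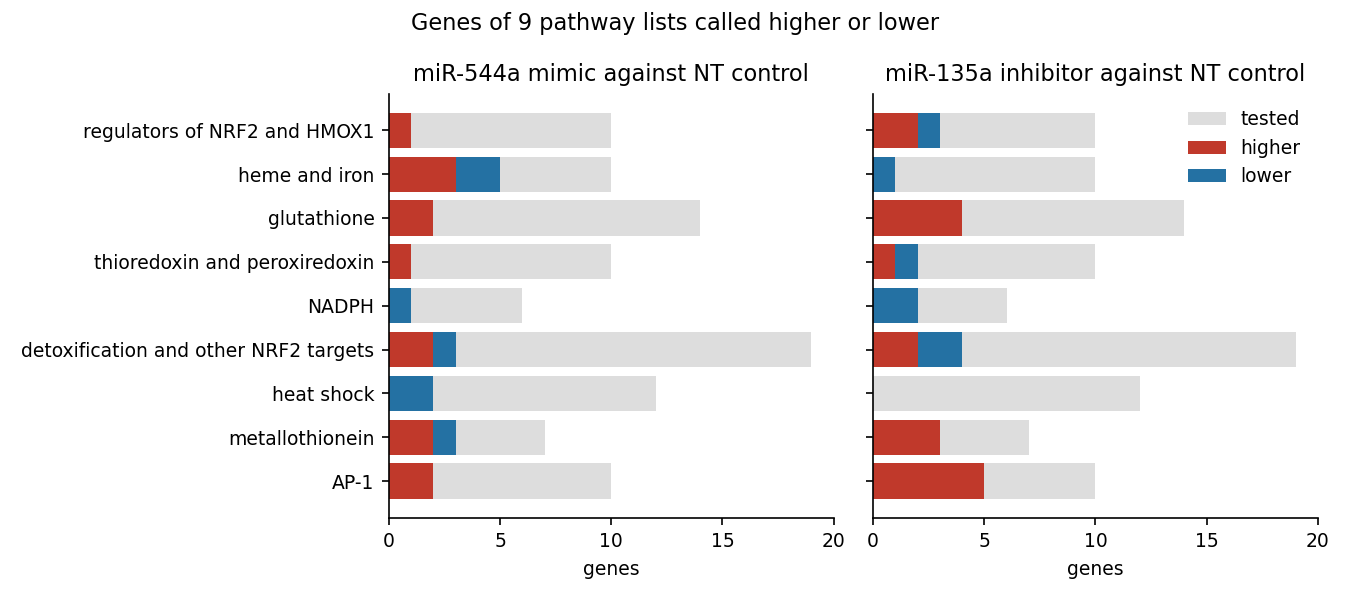
Number of genes of 9 pathway lists tested (grey), called higher (red) and called lower (blue) for the miR-544a mimic and the miR-135a inhibitor against the NT control. Heme and iron genes hold 3 higher and 2 lower calls of 10 with the miR-544a mimic and 0 and 1 with the miR-135a inhibitor.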

How the data were processed

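The authors deposited, for each of 24 Illumina HT12v4 arrays, a non-normalized signal intensity and a detection p-value per probe, and a second table of log2 values after their background subtraction and quantile normalization. Labels describe Trizol and RNeasy extraction and the study's methods a RecoverAll kit, and which was used is not resolved here. Starting from the deposited intensities, background was modelled from the detection p-values (normexp) with an offset of 16, followed by quantile normalization and log2 (neqc, limma 3.58.1, R 4.3.3), which shrinks fold changes of dim probes. Probes passing detection (p under 0.05) in both replicates of 1 or more groups were fitted with lmFit and eBayes over all 24 arrays in 12 groups (12 residual degrees of freedom), with Benjamini-Hochberg adjustment over all 22803 tested probes. A call needed a 1.4-fold change and an adjusted p below 0.05, the thresholds of the study's methods, which used SAM. SAM was not run, since 2 against 2 arrays leave very few label permutations. The fit was tested on simulated data.

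Gene names came from the platform annotation (30109 probes with 1 symbol). Each gene was represented by its brightest tested probe, with other probes named where they differed. From each list at most 3 genes called in the miR-544a comparison were named, those with the largest change; any other is said to be named after its values were seen. The members and lists were chosen with earlier results of these data known. Comparisons of mimic with own inhibitor for single microRNAs were added after the data were seen. The number of arrays limits the precision. Figures were drawn with matplotlib 3.10.9. The deposited log2 table was used only as an alternative, and the alternatives tried are given in the closing section. Array headers name no chip, so no chip block was run.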

Additional observations from a re-analysis of the deposited data

Results flagged for a closer look

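GCLC, TXNRD1 and GCLM had a mimic to inhibitor difference for miR-544a that differed from the mean of the same difference for the 4 other microRNAs. For GCLC the contrast was 0.84 ± 0.18 on the log2 scale (limma adjusted p = 0.00242). For TXNRD1 it was -0.69 ± 0.18 (limma adjusted p = 0.00772). For GCLM it was 0.62 ± 0.22 (limma adjusted p = 0.0469). These were 3 of the 9 members other than HMOX1, beside 31.3% of all genes at the same threshold. Nothing is read from this count, since the contrast uses the miR-544a mimic arrays that chose HMOX1. The GCLM contrast no longer passed when any of 18 of the 24 arrays was left out, nor did the TXNRD1 contrast without miR-544a mimic replicate 1 (-0.50) or under median scaling (-0.39). The GCLM contrast was also lost under plain background subtraction, in the authors' log2 table, with no filter and with only the compared groups. Between mimic and inhibitor GCLC gave -0.97 for miR-135a and -1.11 for miR-410. For miR-544a the GCLC arrays overlapped, at 169 and 151 with the mimic and 152 and 113 with the inhibitor. With 2 arrays per group no array could be tested as an outlier.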

How the results depend on the processing

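The rise of HMOX1 under the miR-544a mimic (4.05 on the log2 scale) was 3.41 with no background correction, 3.81 with an offset of 50, 4.18 in the authors' log2 table and 3.12 against the 10 inhibitor arrays, and 3.96 to 4.13 when each array was left out in turn. The count of other members called higher there (1) was 0 against the inhibitor arrays and 0 to 1 with an array left out, and the count called lower (0) was 2 against the inhibitor arrays and 0 to 1 with an array left out. Members called against the 10 inhibitor arrays (2) numbered 1 with no background correction and 2 to 3 with an array left out. The 21 calls in the other comparisons became 14 under median scaling and 14 to 23 with an array left out, lowest without NT control replicate 2. The interaction count (3, alternatives run after seeing the data) was 2 to 4.

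All genes called higher and lower under the miR-544a mimic against the NT control (1753 and 1338) numbered 894 and 824 with no background correction and 961 and 764 with only the compared groups in the fit.

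The 41 single member values included members not called under the miR-544a mimic against the NT control, which had no call to lose. Among the 41, 12 calls were lost under median scaling, 9 with only the compared groups in the fit, 6 with no filter and 5 with no background correction. Another 4 were lost in the authors' table, 2 under plain subtraction, 1 with offset 50 and 0 with probes detected on all 24 arrays only. No called value changed sign. Calls gained in the other comparisons with the NT control were outside the 41. Median scaling gained NFE2L2 lower with the miR-135a mimic and NQO1 lower with the miR-410 mimic. Probes detected on all 24 arrays only gained SLC7A11 higher with the miR-369-3p inhibitor. TXNRD1 with the miR-544a inhibitor was gained in the settings named in its section. With no background correction SLC7A11 was 0.84 higher with the miR-135a mimic, 0.53 with its inhibitor and 0.48 (not called) with the miR-127-5p mimic, and -0.32 (not called) for the miR-544a mimic against the inhibitor arrays. The TXNRD1 interaction was -0.39 and no longer passed under median scaling. A chip block was not run because the headers name no chip. Replicate numbers did not pair the samples as a whole. Replicate differences of 66 group pairs correlated at -0.47 to 0.46, with a median of 0.03 and 25 pairs over 0.1. Arrays of some groups thus shared differences of either sign, and their source was not tested. A replicate block gave 4.05 for HMOX1 and lost 1 call, TXNRD1 with the miR-410 mimic (0.53).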

Other observations

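In the miR-135a inhibitor arrays 17 of the 98 listed pathway genes (17.3%) were called higher and 7 (7.14%) lower, beside 6.58% and 6.97% of all genes. With the miR-135a mimic 17 (17.3%) were called higher and 8 (8.16%) lower, beside 10.0% and 9.28% of all genes. With the miR-127-5p mimic, where HMOX1 was lowest, 14 (14.3%) were called higher and 12 (12.2%) lower, beside 9.71% and 9.40%. The genes that follow were named after their values were seen. With the miR-135a inhibitor MT1X, a metallothionein, was 2.24 higher than in the NT control on the log2 scale. SOD2 was 1.92 higher there, TXNIP 1.24 and ATF3, a stress transcription factor, 1.10. The 7 listed genes called lower with the miR-135a inhibitor were AKR1B10, PIR, ME1, IDH1, NFE2L3, SLC40A1 and SESN1. The miR-369-3p and miR-410 inhibitor arrays had MT1X 1.54 and 1.96 higher and SOD2 1.29 and 1.41 higher. Under the miR-544a mimic MT1X was 0.68 and SOD2 0.86 higher. Under the miR-127-5p mimic catalase (CAT) was 1.08 lower and SESN2, a sestrin, 1.21 higher. All of these comparisons share the NT control arrays.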
